A study of Mus musculus with 6 samples.

Results

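The insulin-like growth factor (IGF) genes described here are 8 of the 54134 genes in the count table. They encode the ligands Igf1 and Igf2, the receptors Igf1r and Igf2r, and the binding proteins Igfbp2, Igfbp3, Igfbp4 and Igfbp5. They were taken by gene symbol, without use of their values, and all 8 were among the 12733 genes that passed the filter on low counts.

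RNA was sequenced from the tailbuds of E10.5 mouse embryos labelled C57BL/6, with 1 library per embryo. The 4 wildtype embryos were, by the labels, embryos negative for the transgene. The 2 Cdx2P:Nr6a1 embryos were transient transgenics, in which regulatory elements of Cdx2 drive the coding sequence of the orphan nuclear receptor Nr6a1. Each of them is its own founder with its own integration, no line was made, and the elements act in the caudal embryo and not in a single cell type. The comparison asked how the RNA of these genes differed when Nr6a1, which normally declines before this stage, was kept on.

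IGF1 and IGF2 are secreted growth factors that signal through the tyrosine kinase receptor IGF1R and, for IGF2, through the insulin receptor. IGF2R carries no kinase signal of that kind, takes IGF2 up for degradation in lysosomes and also sorts lysosomal enzymes. The binding proteins hold the ligands outside the cell, and proteases that cut them set the ligands free. In the mouse embryo Igf2 is the main growth-promoting ligand, it is expressed from the paternal allele, and Igf2r is expressed from the maternal allele.

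Library totals lay between 44073460 and 67183802 counts. Nr6a1 was at 3.91, 5.18, 5.53 and 6.89 CPM (counts scaled to the library total) in wildtype replicates 1 to 4 and at 23.4 and 33.8 CPM in Cdx2P:Nr6a1 replicates 1 and 2, so both transgenic libraries went with their labels. Transcripts of Y-linked genes were present in wildtype replicate 3 and Cdx2P:Nr6a1 replicate 2 and were at most 0.089 CPM in the other 4. Markers of the tailbud were present in every library, and 2 of 7 such genes were called, Cdx2 higher and Cdx1 lower. The summed level of 7 surface ectoderm markers was 178 to 229 CPM in wildtype and 240.4 and 259.5 CPM in Cdx2P:Nr6a1, with Krt18 called higher. Only Krt8 and Krt18 of this list lay above the wildtype range in both transgenic libraries. Krt5, Krt14, Trp63, Grhl3 and Tfap2a overlapped between genotypes. The sum of 7 neural tube markers was 89.1 to 98.6 CPM in wildtype and 93.9 and 119.75 CPM in Cdx2P:Nr6a1, with Sox1 and Sox3 called higher and Olig2 at 0 in all libraries. Sox1, at 0.895 to 1.41 CPM in wildtype, passed the filter on low counts only through the transgenic libraries. Cdx2P:Nr6a1 replicate 2 had the highest sums of 7 macrophage markers (52.7 CPM, against 13.9 to 35.3 in wildtype) and of 7 lateral plate and limb markers (9.24 CPM, against 3.07 to 4.52). Its partner stood at 16.3 and 2.70 CPM. In replicate 2, Lyz2 alone gave 28.7 CPM of the macrophage sum, against 1.38 to 5.19 CPM in wildtype. Csf1r, Cx3cr1, C1qb and Ptprc of that library lay within the wildtype range, and C1qa and Adgre1 just above it. Sums of the somite, gut, notochord, endothelial and erythroid lists overlapped between genotypes. The part of these differences in the values of the IGF genes was not tested.

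Of the 8 genes, 1 was called higher (Igf2) and 0 lower in Cdx2P:Nr6a1 tailbuds by the quasi-likelihood test of edgeR at a false discovery rate (FDR) under 0.05. Among all 12733 genes tested, 203 (1.59%) were called, 100 higher (0.785%) and 103 lower (0.809%). Both transgenic libraries lay above all wildtype libraries for 2 of the 8 genes, Igf2 and Igfbp5, against 10.1% of all genes, and below them for 0 of 8, against 8.48%. The unadjusted p was under 0.05 with a positive fold change for the same 2 genes (5.54% of all genes) and with a negative one for 0 of 8 (4.99%). The median log2 fold change of the 8 genes was 0.11, with the median of all tested genes at -0.001. In whole tailbuds, a change in the number of cells that express a gene and a change in RNA per cell cannot be told apart.

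**Figure D1:**
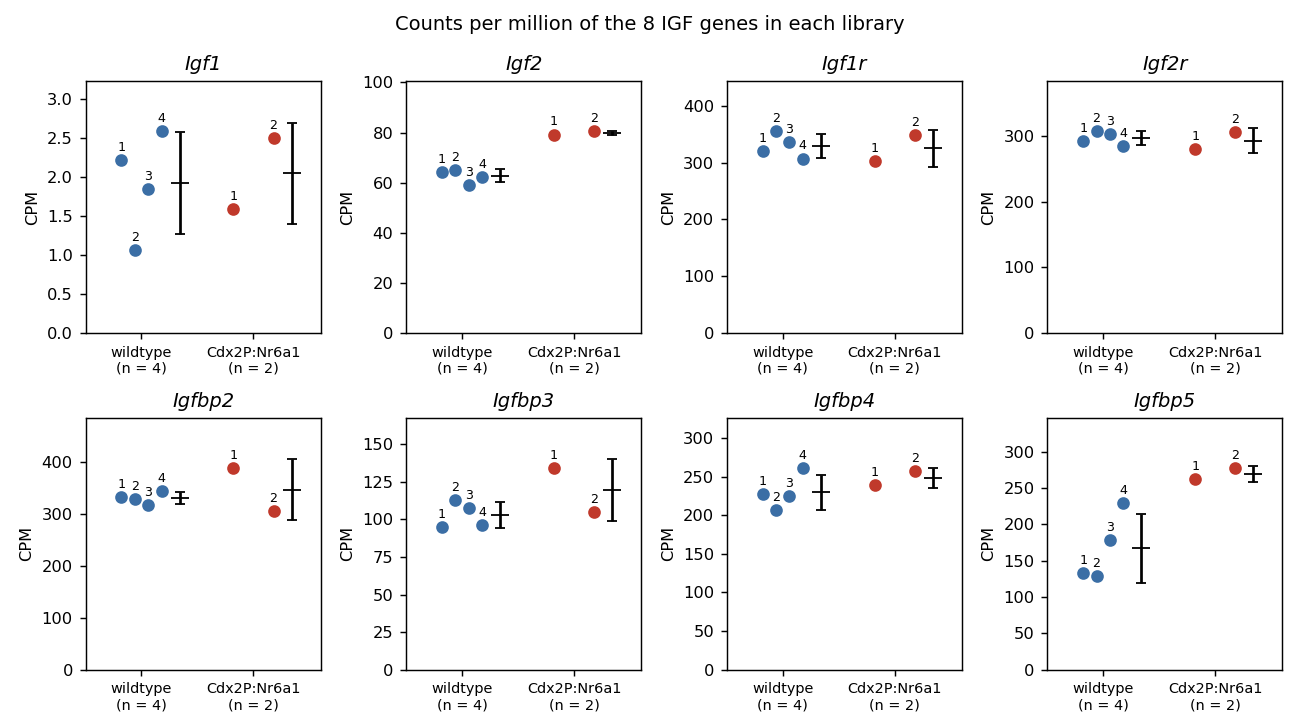
CPM (vertical axis, from 0) of the 8 IGF genes in each library, with the replicate number above each point. Black marks give the mean and SD of each genotype (wildtype n = 4, Cdx2P:Nr6a1 n = 2). Both transgenic points lie above all wildtype points for Igf2 and Igfbp5, and the genotypes overlap for the other 6 genes.

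Levels were set side by side per kilobase of exon sequence that a gene shares with no other gene. In wildtype tailbuds Igfbp2 was highest, at 179 ± 6.22 CPM per kb (SD, n = 4). Igfbp4 followed at 52.1 ± 5.15. Igfbp3 at 32.9 ± 2.81, Igf2r at 31.4 ± 1.11, Igf2 at 30.9 ± 1.29 and Igfbp5 at 27.8 ± 7.91 CPM per kb formed a run in which each gene's range overlapped that of the next. Igf1r stood below them at 19.6 ± 1.24. The Igf2 value covers only part of its exons and is an underestimate, so its place in this order is uncertain. Igf1 was far lower than every other member, at 0.194 ± 0.0658 CPM per kb, so that nearly all IGF ligand RNA in these tailbuds was that of Igf2.

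Nr6a1 is known to bind direct repeats of the motif AGGTCA without a spacer, and the starts of the 8 genes were read for it. RefSeq (GRCm38.p6) gave 12 start sites for the 8 genes, of which Igf2 has the most, and windows ran from 250 bases before to 50 after each. The direct repeat AGGTCAAGGTCA was in 0 of the 12 windows on either strand (0.00609% of 32851 mouse windows of this length held it). The extended motif TCAAGGTCA, which the repeat contains, was also in 0 of 12 (0.423% of all). The single motif AGGTCA, which lies within both, was in 4 of 12 windows (16.3% of all), 1 each of Igf1, Igf1r, Igf2 and Igf2r, and in no window of a binding protein gene. These 4 sites are shown in the direction of the gene, with the motif or its reverse complement in capitals. They are a match of letters and no evidence of binding.
Igf1: ctcagggaagagAGGTCAgctgcctagagc
Igf1r: cgtgctcggcttTGACCTtcagcgagccgg
Igf2: gcaccagtggctTGACCTctctgtgtctat
Igf2r: gcgggccgactcAGGTCAcgtgacgctccg

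The Igf1 stretch is chr10:87860938-87860967 (plus strand), with the motif 161 bases before the start site. That of Igf1r is chr7:67952159-67952188 (plus strand), with the motif 86 bases before it. The Igf2 stretch, chr7:142667033-142667062 (minus strand), has the motif 234 bases before the most upstream start. In that of Igf2r, chr17:12769700-12769729 (minus strand), the motif lies 11 bases before the start site, which falls within the stretch. The RefSeq start of Igf1r (67952257) lies upstream of its first exon base in the annotation used for the counts (67952827). That of Igf2r (12769706) does too (12769664). The sequence TATAAA, read on the strand of the gene, was found for Igfbp4 alone, 28 bases before its start (8.32% of all windows).

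Among the ligands, Igf2 (chr7:142650766-142666816, minus strand, mm10) rose. Its level was 64.4, 65.0, 59.2 and 62.4 CPM in wildtype replicates 1 to 4 and 79.2 and 80.5 CPM in Cdx2P:Nr6a1 replicates 1 and 2. The 4 wildtype libraries lay close together, and both transgenic libraries lay above all of them. The means were 62.8 ± 2.61 CPM (SD, n = 4) and 79.8 ± 0.873 CPM (SD, n = 2). Igf2 had a log2 fold change of 0.34 with a standard error (SE) of 0.05 and a 95% interval of 0.22 to 0.46, a 1.27-fold rise (1.17 to 1.38), and the edgeR FDR was 0.0168. The exact permutation test of the means, two-sided, gave p = 0.0667, the smallest that 4 libraries against 2 allow. It was 0.31 to 0.36 on the log2 scale with any 1 library left out, and the call was lost without wildtype replicate 4 (FDR 0.0536) or either transgenic library (FDR 0.101 without replicate 1 and 0.144 without replicate 2).

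The Igf2 count does not cover the whole of its RNA. Of the 5723 exon bases of Igf2 in the table's annotation, 3596 (62.8%) are also exon bases of Gm49394, a gene model on the same strand, and 98 (1.71%) of the antisense gene Igf2os. Gm49394 has 0 of its 4738 exon bases to itself and had 0 counts in all libraries. Throughout the table, 1155 genes had no exon base of their own, and 0 of them had any count, including 446 genes covered by genes of the opposite strand alone. Reads on shared bases were thus given to neither gene, and strand was not used.

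What remains for Igf2 is 2029 bases (35.5%), chiefly the exons of its alternative starts and leader sequences. The last exons, with 546 of its 678 coding bases (80.5%), are shared and fall outside the count. The rise of Igf2 is therefore one of reads on its upstream exons, and its level per gene is an underestimate. Divided by all exon bases, which include those whose reads were not counted, the wildtype figure was 11.0 CPM per kb, below that of Igf1r. That figure understates the level of Igf2 still more and gives it no place in the order. The other 7 members share 0 exon bases with another gene.

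**Figure D2:**
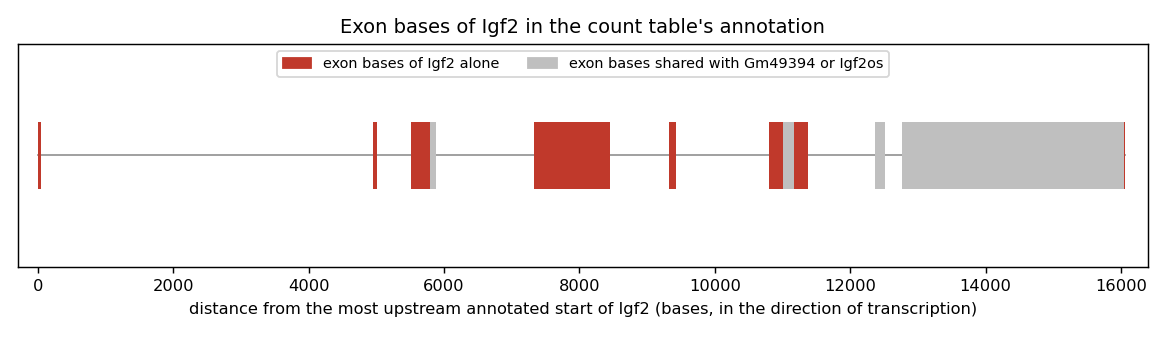
Exon bases of Igf2 along the gene, as distance in bases from its most upstream annotated start, with bases of Igf2 alone in red and bases shared with another gene in grey. The red parts sum to 2029 bases and lie in the upstream exons, while the large last exon is shared save for its last 3 bases.

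Igf1 (chr10:87858265-87937042, plus strand), the ligand that carries much of the postnatal response to growth hormone, was near the floor of the filter. It was at 2.22, 1.06, 1.84 and 2.58 CPM in wildtype and at 1.59 and 2.50 CPM in Cdx2P:Nr6a1. The genotypes overlapped, and both transgenic values lay within the wildtype range. The log2 fold change was 0.11 (SE 0.33, 95% interval -0.64 to 0.86, edgeR FDR 0.963), so a difference as large as that of Igf2 was not detectable for Igf1 at this level.

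Igf2 lies in an imprinted cluster with the noncoding RNA H19, transcribed from the maternal allele 72.6 kb away. H19 was among the most abundant RNAs examined here, at 2413, 2522, 2571.5 and 2799 CPM in wildtype and 3098 and 2952 CPM in Cdx2P:Nr6a1. Both transgenic libraries lay above all wildtype libraries, with a log2 fold change of 0.23 (SE 0.05) that missed the threshold (edgeR FDR 0.0869). The antisense gene Igf2os was at 18.2, 15.5, 16.3 and 16.0 CPM in wildtype and at 24.4 and 19.5 CPM in Cdx2P:Nr6a1. It too lay above the wildtype range in both, with a log2 fold change of 0.40 (SE 0.11, edgeR FDR 0.148). Because strand was not used, unspliced Igf2 RNA and Igf2os cannot be told apart where Igf2os exons lie in Igf2 introns.

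**Figure D3:**
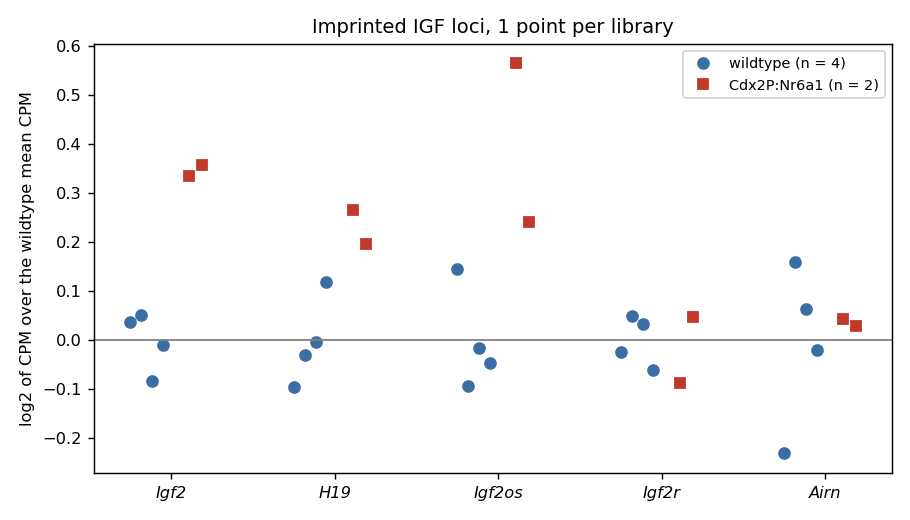
Log2 of CPM over the wildtype mean CPM (vertical axis) in each library for Igf2, its neighbours H19 and Igf2os, and Igf2r with its antisense RNA Airn. Circles are wildtype and squares Cdx2P:Nr6a1 libraries, 1 point each. Both squares lie above all circles for Igf2, H19 and Igf2os, and among the circles for Airn, while the squares of Igf2r lie on both sides of 0.

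Neither receptor was called. Igf1r (chr7:67952827-68233668, plus strand), the signalling receptor, was at 319.8, 355, 337 and 307 CPM in wildtype and 303 and 348 CPM in Cdx2P:Nr6a1. One transgenic library lay just below the wildtype range and the other within it. Its log2 fold change was -0.02 (SE 0.07, 95% interval -0.19 to 0.14, edgeR FDR 0.964).

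Igf2r (chr17:12682406-12769664, minus strand), the uptake receptor, was at 292, 307, 303.5 and 284 CPM in wildtype and 279 and 306 CPM in Cdx2P:Nr6a1. As for Igf1r, transgenic replicate 1 was the lowest library of the 6 and replicate 2 lay within the wildtype range. The log2 fold change was -0.02 (SE 0.06, 95% interval -0.15 to 0.10, edgeR FDR 0.956). The intervals of both receptors leave out a rise of the size measured for Igf2. Airn, the antisense RNA that silences the paternal Igf2r allele, had a log2 fold change of 0.03 (SE 0.11, edgeR FDR 0.971). Where Airn lies within the Igf2r gene, its reads cannot be told apart from unspliced Igf2r RNA.

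The 4 binding proteins had positive fold changes, between 0.06 and 0.68 on the log2 scale, and none of them was called. Igfbp5 (chr1:72857932-72874884, minus strand), a binding protein that also attaches to the extracellular matrix, had the largest difference of the 8 genes. It was at 132, 128, 178 and 229.9 CPM in wildtype and at 262 and 277 CPM in Cdx2P:Nr6a1. Both transgenic libraries lay above all wildtype libraries, but the wildtype libraries were themselves far apart, with an SD of 28.4% of their mean. The means were 167 ± 47.5 CPM (SD, n = 4) and 269 ± 11.0 CPM (SD, n = 2).

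For Igfbp5 the log2 fold change was 0.68 (SE 0.20, 95% interval 0.24 to 1.13), a 1.61-fold difference with an interval of 1.18 to 2.19, and the edgeR FDR was 0.173. Without wildtype replicate 4, the wildtype library nearest to the transgenic ones, the log2 fold change was 0.87 and the FDR 0.0240. Over 16 alternatives it was called in 4, with adjusted p from 5.6e-28 to 0.538, and the fold change was positive in every one of them. The lowest of these came from the fit with no filter on low counts, which called 876 genes in all.

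Igfbp2 (chr1:72824503-72852474, plus strand), the member with the highest counted level per kilobase and the neighbour of Igfbp5 at a distance of 5.46 kb, did not share its pattern. It was at 333, 328, 317 and 345 CPM in wildtype and at 388 and 306 CPM in Cdx2P:Nr6a1. One transgenic library lay above all wildtype libraries and the other below all of them. For Igfbp2 the log2 fold change was 0.06 (SE 0.08, 95% interval -0.13 to 0.25, edgeR FDR 0.903).

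Igfbp3 (chr11:7206086-7213923, minus strand), the main carrier of IGFs in adult serum, was at 94.7, 113, 108 and 96.3 CPM in wildtype and 134 and 105 CPM in Cdx2P:Nr6a1. Replicate 1 again lay above the wildtype range and replicate 2 within it. The log2 fold change was 0.21 (SE 0.10, 95% interval -0.02 to 0.43, edgeR FDR 0.533). Its value rested on that library, since it was 0.03 on the log2 scale without Cdx2P:Nr6a1 replicate 1 and 0.37 without replicate 2.

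Igfbp4 (chr11:99041244-99054392, plus strand), which PAPP-A proteases cut to free its ligand, was at 227, 206, 225 and 261 CPM in wildtype and 239 and 258 CPM in Cdx2P:Nr6a1. Both transgenic values fell within the wildtype range. Its log2 fold change was 0.11 (SE 0.08, 95% interval -0.08 to 0.30, edgeR FDR 0.800).

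**Figure D4:**
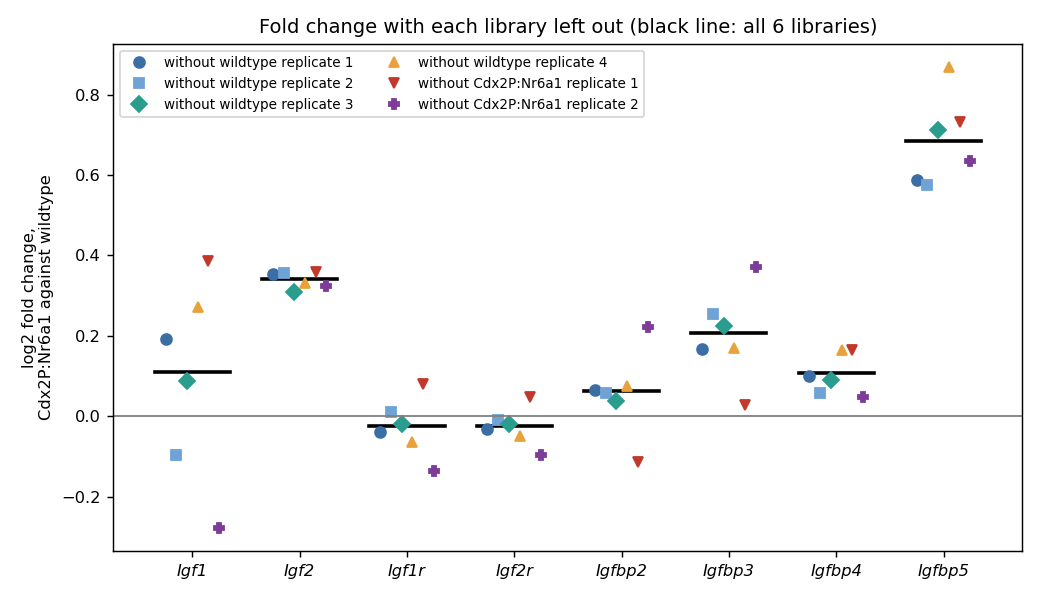
Log2 fold change (vertical axis) of the 8 IGF genes with all 6 libraries (black lines) and with each library left out in turn (symbols). The symbols of Igf2 stay between 0.31 and 0.36 and those of Igfbp5 between 0.575 and 0.869, while those of Igf1, Igf1r, Igf2r and Igfbp2 fall on both sides of 0.

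The list of 41 other genes holds genes of the pathway and the imprinted neighbours H19, Igf2os and Airn. Of them 31 passed the filter, 0 were called higher and 1 was called lower. Among all tested genes 1.59% were called in either direction. Both transgenic libraries lay above all wildtype libraries for 6 of the 31 (10.1% of all genes) and below them for 4 (8.48%). The unadjusted p was under 0.05 for 7 with a positive fold change (5.54% of all genes) and for 3 with a negative one (4.99%). H19 and Igf2os, neighbours of Igf2, were among both the 6 and the 7. The median log2 fold change of the 31 genes was 0.03. The 10 genes that did not pass the filter included both insulin genes, the receptor relative Insrr, Igfbp1, Igfbp6, Igfals, the proteases Pappa and Pappa2, Stc1 and Irs4. Igfbp1, which lies 3.54 kb from Igfbp3, was at most 0.895 CPM in any library, and Ins1 was at 0 in all.

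The gene called lower was Foxo3, a transcription factor that AKT keeps out of the nucleus when IGF or insulin receptors are active. Its level was 90.7, 88.6, 85.5 and 87.3 CPM in wildtype and 74.0 and 70.7 CPM in Cdx2P:Nr6a1. Both transgenic libraries lay below all wildtype libraries by more than the spread within either genotype. Foxo3 had a log2 fold change of -0.29 (SE 0.05, edgeR FDR 0.0262). The call was lost without wildtype replicate 2 (FDR 0.0595), wildtype replicate 4 (0.0544), or Cdx2P:Nr6a1 replicate 1 (0.119) or 2 (0.184), while the fold change stayed between -0.32 and -0.26 over 16 alternatives. Its relative Foxo1 was at 37.2 to 53.1 CPM in wildtype and 45.3 and 33.1 CPM in Cdx2P:Nr6a1, and was not called (log2 fold change -0.16, SE 0.15, edgeR FDR 0.863); it was chosen after its values were seen.

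The rest of the signalling arm below the receptors gave 0 calls among 12 tested genes. The kinase Akt1 had a log2 fold change of -0.03 (SE 0.05) and the catalytic subunit Pik3ca of -0.08 (SE 0.06). Pik3cb and Mtor were chosen after their values were seen. The catalytic subunit Pik3cb stood above the wildtype range in both transgenic libraries (24.1 to 24.9 CPM in wildtype, 29.3 and 28.7 CPM in Cdx2P:Nr6a1, log2 fold change 0.23, SE 0.06, edgeR FDR 0.119). The growth kinase Mtor was at 101.05 to 106 CPM in wildtype and 86.7 and 101.01 CPM in Cdx2P:Nr6a1 (edgeR FDR 0.473), so that replicate 1 alone was distinctly lower.

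Of the adaptors that bind the receptors, 7 were tested and 0 called. Grb10, an imprinted adaptor that dampens IGF and insulin signalling, was the most abundant at 1451.5 ± 53.5 CPM (SD, n = 4) in wildtype and 1500.3 ± 27.4 CPM (SD, n = 2) in Cdx2P:Nr6a1, a log2 fold change of 0.04 (SE 0.04). Shc1 had a log2 fold change of 0.05 (SE 0.07) and Irs2 of 0.06 (SE 0.06). Irs1, chosen after its values were seen, was at 48.8 to 58.1 CPM in wildtype and 45.6 and 48.2 CPM in Cdx2P:Nr6a1. Its log2 fold change was -0.22 (SE 0.07, edgeR FDR 0.284). The insulin receptor Insr, the other signalling receptor for IGF2, was at 113 to 141 CPM in wildtype and 119.8 and 118 CPM in Cdx2P:Nr6a1 (log2 fold change -0.11, SE 0.08, edgeR FDR 0.745).

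The X-linked adaptor Irs4 was outside the test because its CPM passed 2 in only 1 library, and it is described here because of its values. It had 26, 34, 31 and 25 counts in wildtype replicates and 67 and 149 counts in Cdx2P:Nr6a1, or 0.529 to 0.609 CPM against 1.52 and 2.22 CPM. The transgenic counts exceeded all wildtype counts by more than the spread of the latter. Under the looser filterByExpr filter the edgeR test gave a log2 fold change of 1.72 with an adjusted p of 0.00636, and with no filter 1.73 with 8.11e-09.

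Among the other binding proteins and their proteases 0 genes were called. Igfbpl1, a relative of the binding proteins, was at 35.3 to 44.8 CPM in wildtype and 44.7 and 55.3 CPM in Cdx2P:Nr6a1 (log2 fold change 0.29, SE 0.10, edgeR FDR 0.300). Htra1, a secreted serine protease able to cut IGF-binding proteins, was at 8.66 to 15.1 CPM in wildtype and 18.8 and 16.8 CPM in Cdx2P:Nr6a1. The transgenic values lay above the wildtype range, and the log2 fold change of 0.57 (SE 0.18) missed the threshold (edgeR FDR 0.223). Igfbp7 had a log2 fold change of -0.15 (SE 0.17) and Stc2, which inhibits PAPP-A, of 0.06 (SE 0.23), each with 1 transgenic library inside the wildtype range and 1 outside it.

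The 3 Igf2bp genes encode proteins that bind IGF2 mRNA. Igf2bp2 was at 253 to 269 CPM in wildtype and 272 and 298 CPM in Cdx2P:Nr6a1, and Igf2bp3 at 139.7 to 148 CPM and at 154 and 164 CPM. Both stood above the wildtype range by small margins, with log2 fold changes of 0.12 (SE 0.05, edgeR FDR 0.461) and 0.13 (SE 0.05, edgeR FDR 0.325). Igf2bp1 showed no such difference (log2 fold change 0.00, SE 0.06).

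**Figure D5:**
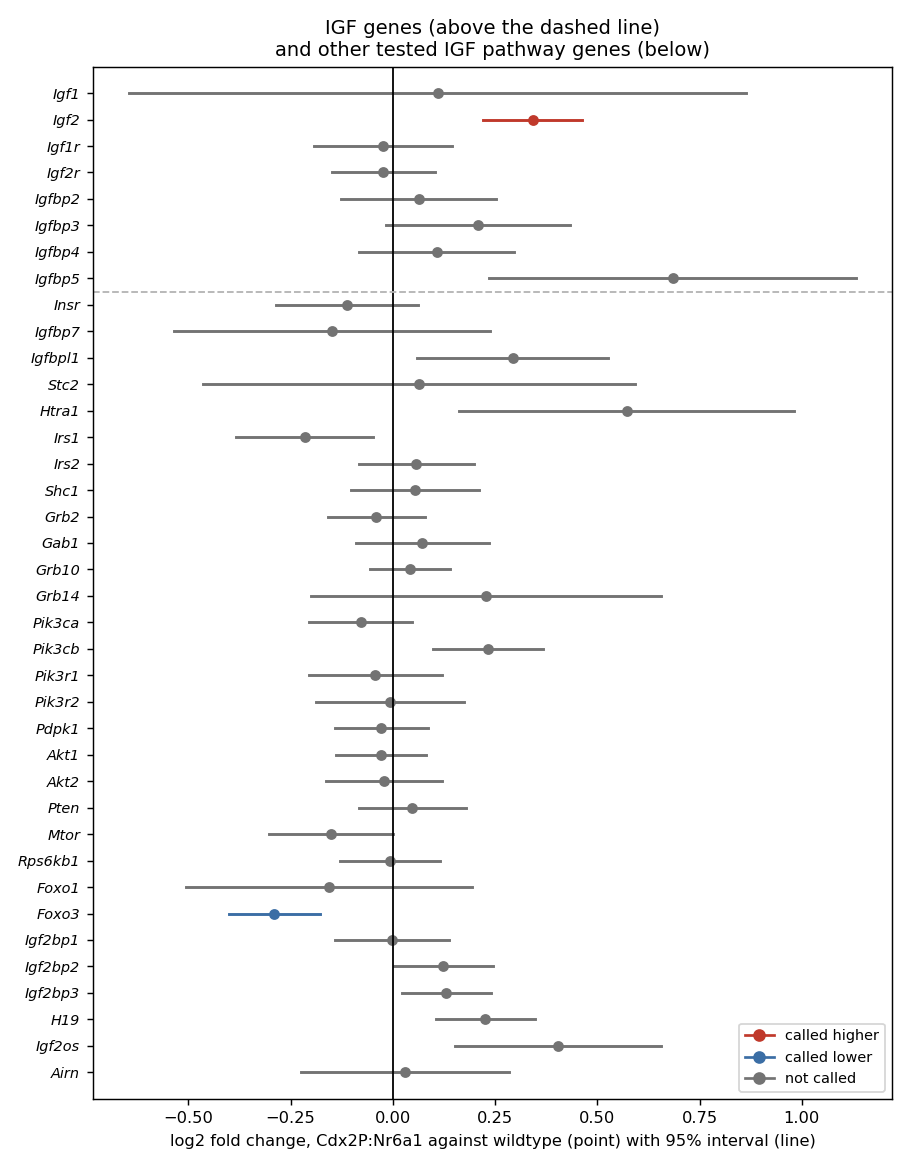
Log2 fold change of Cdx2P:Nr6a1 against wildtype (points, horizontal axis) with its 95% interval (lines). The 8 IGF genes are above the dashed line. Other tested pathway genes and the imprinted neighbours H19, Igf2os and Airn are below it. Igf2 is called higher, Foxo3 is called lower, and Igfbp5 has the largest fold change without a call.

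The tested genes most like Igf2 over the 6 libraries, by Pearson's r of log2 CPM, were 9930014A18Rik (r = 0.994), Padi2 (r = 0.990) and Pax2 (r = 0.988). All 3 were higher in both transgenic libraries than in any wildtype library, with Padi2 at 0.519 to 0.793 CPM in wildtype and 2.36 and 3.11 CPM in Cdx2P:Nr6a1. Padi2 passed the filter on low counts only through the transgenic libraries, so its difference was partly set by the filter. Those most like Igfbp5 were Gpd1l (r = 0.996), 1810024B03Rik (r = 0.990) and Zfp473 (r = 0.987). They followed its differences among wildtype libraries as well, with Gpd1l at 38.2, 38.3, 41.0 and 42.7 CPM in wildtype and 43.5 and 44.1 CPM in Cdx2P:Nr6a1. These coefficients describe 6 libraries that share a genotype contrast, and were picked as the highest of 12733.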

How the data were processed

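The deposited table holds raw read counts per gene and library, which the authors made from TruSeq stranded mRNA reads aligned to mm10 with STAR. The counting program is not given in the sources used here. A second table, with the fold changes and p-values of the authors, was not used. Groups follow the genotype that the labels give, no batch is named there, and 0 columns belonged to other samples.

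CPM was computed from column totals. The filter of the study was used (more than 10 counts and more than 2 CPM, each in 2 or more libraries), scaling was by TMM, and edgeR 4.0.16 (R 4.3.3) tested genotype by its quasi-likelihood test, with Benjamini-Hochberg FDR under 0.05 over all kept genes. Dispersion was shared by all 6 libraries (biological coefficient of variation 9.40%). The script was tested on simulated data. The 17 alternatives included limma 3.58.1 (voom) and DESeq2 1.42.0. Exon positions are those of the table, which for 46 of 50 genes checked were the exons of GENCODE M21 (GRCm38, the same build as mm10), and start-site sequences are from RefSeq.

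The members, lists and tests were chosen with earlier results of these data known. Named were the 8 members, called pathway genes with up to 3 more of highest CPM per role, imprinted neighbours, Nr6a1, and the 3 genes most like Igf2 and Igfbp5. Other genes named, Irs4, Irs1, Foxo1, Pik3cb and Mtor, or listed as not tested, were chosen after their values were seen. So were the markers named singly and Gm49394. For 1 pathway gene no value is reported here. No 2 libraries agreed within sampling noise. P-values measure the spread between embryos.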

Additional observations from a re-analysis of the deposited data

Results flagged for a closer look

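Igf2bp1 in wildtype replicate 4 stood apart from the other wildtype libraries, at 347 CPM against 385 to 389 CPM, a gap of 0.900 of the range of that group, above Dixon's critical value at the 95% level. It was 1 of 40 genes examined, where chance alone flags about 1 in 20 groups, and Igf2bp1 was at 368 and 388 CPM in the Cdx2P:Nr6a1 libraries.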

How the results depend on the processing

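Of the 8 members, 2 were called by both the exact and the likelihood ratio test of edgeR (Igf2 and Igfbp5), 3 with no filter on low counts (Igfbp3 besides, adjusted p 0.0252, range over the 16 alternatives 0.0252 to 0.999), and 0 to 1 with a library left out. Igf2 was called in 13 of 16 alternatives (adjusted p 6.27e-06 to 0.144). Of the other listed genes, 4 were called by DESeq2 (Htra1, Foxo3, H19 and Igf2os), 2 with the filterByExpr filter (Foxo3 and Irs4), 5 with no filter, and 0 to 1 with a library left out. Over all genes, 401 were called by the likelihood ratio test, 391 by the exact test, 477 by DESeq2, 876 with no filter (where 32579 genes were tested), and 61 to 175 with a library left out, against 203. Directions of the 8 members changed only when a library was left out. With 1 library left out, the log2 fold change of Igf1 ran from -0.28 (without Cdx2P:Nr6a1 replicate 2) to 0.39, with -0.10 without wildtype replicate 2. That of Igf1r ran from -0.14 to 0.0792 (without Cdx2P:Nr6a1 replicate 1), with 0.01 without wildtype replicate 2. Igf2r ran from -0.10 to 0.0473 and Igfbp2 from -0.11 to 0.22, both of the opposite sign to the value with all libraries without Cdx2P:Nr6a1 replicate 1. The causes were not tested. With a Cdx2P:Nr6a1 library left out, the remaining one is assumed to vary like the wildtype libraries.

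The labels name no pairing of embryos by replicate number. Deviations from the group means correlated at 0.27 for number 1 and -0.226 for number 2. With 2 transgenic libraries these deviations mirror each other, so the correlations cannot show whether the numbers pair embryos. With the number as a block, 442 genes, 2 members (Igf2 and Igfbp5) and 5 other listed genes (Igfbpl1, Htra1, Irs1, Foxo3 and H19) were called, and the log2 fold change of Igfbp5 was 1.04. That fit rests on 2 pairs, since wildtype replicates 3 and 4 have no partner.

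Igf1, at about 2 CPM, is the member most limited by depth. With 2 transgenic embryos, each a separate founder, integration site and genotype cannot be told apart.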

Other observations

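The sum of Igfbp2, Igfbp3, Igfbp4 and Igfbp5 was 282 to 315 CPM per kb in wildtype and 351 and 303 CPM per kb in Cdx2P:Nr6a1. Igfbp5 gave 7.76%, 7.58%, 10.4% and 12.2% of it in wildtype and 12.4% and 15.2% in Cdx2P:Nr6a1, so the lower transgenic share lay just above the highest wildtype share. Igfbp2 gave 59.3% to 63.4% in wildtype and 59.9% and 54.5% in Cdx2P:Nr6a1.

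There were 37.4 to 44.9 H19 reads per counted Igf2 read in wildtype and 39.1 and 36.7 in Cdx2P:Nr6a1, of which the second lay below the wildtype range. Since most Igf2 exon bases fall outside its count, this ratio overstates H19 against Igf2. The ratio of Igf1r to Igf2r per kilobase was 0.608 to 0.650 in wildtype and 0.609 and 0.639 in Cdx2P:Nr6a1. These ratios are descriptions without a test.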
